A study of Mus musculus with 18 samples.

Results

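The 10 genes described here encode enzymes that make, break down and recycle glutathione, together with the transsulfuration enzymes that supply its cysteine. They were chosen by symbol: *Chac1* and *Chac2* for degradation, *Gclc*, *Gclm* and *Gss* for synthesis, *Gsr*, *Gpx1* and *Gpx4* for reduction and peroxide removal, and *Cth* and *Cbs* for transsulfuration. All 10 were found among the 54752 genes of the RNA files and among the 22523 genes of the footprint files. Glutathione degradation was compared with synthesis and with the peroxidases in RNA and in ribosome footprints.

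Cerebella of B6J mice and of the mutants B6J.*Gtpbp1*-/- and B6J-*Gtpbp2*-/- were used for RNA sequencing and for ribosome profiling, a method that reads the mRNA fragments (footprints) shielded by ribosomes during nuclease digestion. GTPBP1 and GTPBP2 are related GTPases studied for their part in resolving paused ribosomes, and the comparisons ask how the loss of either changes RNA and translation when a tRNA is scarce. Each genotype had 3 libraries per assay, 18 in all, and each library was made from the cerebellum of 1 mouse aged 3 weeks, with both sexes in use. All groups, controls included, were on C57BL/6J, which carries a hypomorphic mutation in *n-Tr20*, a brain tRNA gene for arginine with the anticodon UCU. B6J.*Gtpbp1*-/- mice were homozygous for tm1Ynim, a targeted allele. B6J-*Gtpbp2*-/- mice were homozygous for nmf205, a point mutation induced by ENU. The RNA libraries held between 37794333 and 52114145 counts and the footprint libraries between 3630823 and 10442573. Counts of mitochondrial genes made up 5.61% to 6.18% of the RNA libraries of B6J mice and 4.42% to 5.04% of those of both mutants, and the part of this difference in the results was not tested.

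The targeted genes were examined first. *Gtpbp1* RNA stood at 71.0, 77.8 and 66.7 CPM (counts scaled to a common library size) in the B6J libraries and at 44.0, 41.7 and 43.9 CPM in the B6J.*Gtpbp1*-/- libraries, all of them lower (log2 fold change −0.73, adjusted p = 5.94e-05, edgeR). Its footprints stood at 73.6, 116.7 and 84.8 CPM in B6J and at 32.0, 25.5 and 35.6 CPM in B6J.*Gtpbp1*-/- mice (−1.57, adjusted p = 0.00676). The values follow the labels, although RNA and footprints of the gene remained in all 3 mutant libraries. *Gtpbp2* RNA stood at 85.9, 74.0 and 88.1 CPM in B6J and at 65.5, 75.4 and 72.7 CPM in B6J-*Gtpbp2*-/- mice, and the ranges overlapped (−0.22, adjusted p = 0.190). Footprints of *Gtpbp2* were 44.7, 36.1 and 38.4 CPM in B6J and 28.9, 26.4 and 7.54 CPM in B6J-*Gtpbp2*-/- mice, lower in every mutant library without passing the test (−0.97, adjusted p = 0.321). Against B6J.*Gtpbp1*-/- mice, where *Gtpbp2* RNA stood at 109, 100.45 and 104 CPM and was above B6J (0.34, adjusted p = 0.0154), it was lower in B6J-*Gtpbp2*-/- mice (a difference of 0.55, adjusted p = 0.0360). These RNA differences depend on the scale. In TPM, which divides by transcript length, *Gtpbp1* RNA of B6J.*Gtpbp1*-/- mice overlapped with B6J and *Gtpbp2* RNA of B6J-*Gtpbp2*-/- mice lay above it. Since nmf205 changes a single base, the level of *Gtpbp2* is a weak check of these labels.

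Glutathione is the main small thiol of the cell. Glutamate and cysteine are joined by glutamate-cysteine ligase and glycine is added by glutathione synthetase, peroxidases spend reduced glutathione to remove peroxides, glutathione reductase restores it, and the CHAC enzymes cleave reduced glutathione inside the cell. Cysteine enters the pathway as imported cystine or from homocysteine by transsulfuration, and neurons of the brain depend on glia for much of this supply.

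All 10 genes were expressed above the count filter and were tested in every comparison. In RNA, 2 of the 10 passed an adjusted p of 0.05 against B6J in B6J.*Gtpbp1*-/- mice, beside 13.8% of the 24577 genes tested, and 2 of 10 passed in B6J-*Gtpbp2*-/- mice, beside 8.63% of 24859. The genes were *Chac1* and *Cth* in both mutants, and both were higher. Shares of this size among 10 genes are close to the background and are no result about the members as a group. In footprints, *Chac1* alone passed, 1 of 10 beside 0.745% of 13956 genes in B6J.*Gtpbp1*-/- mice and 1 of 10 beside 2.94% of 13797 genes in B6J-*Gtpbp2*-/- mice. These counts concern *Chac1* and not the list. Both comparisons share the B6J libraries and are not independent of each other. The median log2 fold change of the 10 genes in RNA was −0.00 in both mutants, against 0.03 over all genes tested in each. In footprints the medians were 0.14 and 0.12, against 0.01 over all genes in each.

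Between the mutants, none of the 10 genes differed in edgeR's test in RNA (0 of 10 beside 0.0595% of 25190 genes) or in footprints (0 of 10 beside 0.0% of 14142 genes). At an unadjusted p under 0.05 the count was also 0 of 10 in both assays, and DESeq2 called 0 of 10 in both. Over all genes, the counts for footprints between the mutants were 0 with edgeR, 1523 at an unadjusted p under 0.05 and 100 with DESeq2.

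Translational efficiency (TE), the change of footprints relative to that of RNA, passed for 0 of 10 genes in B6J.*Gtpbp1*-/- mice, beside 0.0% of 13086 genes, and for 0 of 10 in B6J-*Gtpbp2*-/- mice, beside 0.00773% of 12931 genes. Unadjusted p was under 0.05 for 0 and 2 of the 10 genes, and DESeq2 called 0 and 1. Over all genes, edgeR called 0 genes in B6J.*Gtpbp1*-/- mice, with 1170 at an unadjusted p under 0.05 and 58 with DESeq2. In B6J-*Gtpbp2*-/- mice edgeR called 1 gene, *Cacng3*, named here after its value was seen (−1.63, adjusted p = 0.0372), with 1554 genes at an unadjusted p under 0.05 and 160 with DESeq2.

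Cell type markers of the cerebellum were present in every library, and some moved with genotype. The 8 granule neuron markers, of which *Cbln3* was the most abundant in RNA, summed to 5841, 6267 and 5908 CPM in B6J, to 4112, 4108 and 4738 CPM in B6J.*Gtpbp1*-/- and to 4342, 4557 and 4061 CPM in B6J-*Gtpbp2*-/- RNA. Of these 8, *Gabra6*, *Neurod1*, *Cbln3* and *Etv1* fell in both mutants, and *Zic1* in B6J.*Gtpbp1*-/- mice as well. Estimates above 0 numbered 2 of 8 in B6J.*Gtpbp1*-/- and 1 of 8 in B6J-*Gtpbp2*-/- RNA. They were those of *Kcnk9* in both mutants (0.12, adjusted p = 0.592, and 0.45, adjusted p = 0.0725, edgeR) and of *Zic2* in B6J.*Gtpbp1*-/- mice (0.07, adjusted p = 0.648). Neither gene passed. Of 8 Purkinje cell markers, *Car8* and *Pcp4* fell in B6J.*Gtpbp1*-/- RNA, and *Car8*, *Ppp1r17* and *Calb1* in B6J-*Gtpbp2*-/- RNA. Of markers of microglia, *C1qa*, *C1qb*, *Cx3cr1* and *Csf1r* rose in both mutants, and *Aif1* in B6J.*Gtpbp1*-/- mice. No granule neuron or Purkinje cell marker was at 0, and apart from the lists these genes are named after their values were seen. Of 7 oligodendrocyte markers, 6 fell in B6J.*Gtpbp1*-/- mice, and edgeR called 0 in B6J-*Gtpbp2*-/- mice, with 0 at an unadjusted p under 0.05 and 0 with DESeq2. Choroid plexus markers, led by *Ttr*, varied between libraries of every genotype, from 70.3 to 1787 CPM in RNA and from 64.5 to 13761 CPM in footprints. Of 5 blood markers, *Alas2*, named after its value was seen, rose in B6J.*Gtpbp1*-/- RNA (0.92, adjusted p = 0.0138, edgeR). In B6J-*Gtpbp2*-/- RNA 0 were called, with 0 at an unadjusted p under 0.05 and 0 with DESeq2. All 5 were estimated above 0 in footprints of both mutants. There edgeR called 0 in each, with 1 and 0 at an unadjusted p under 0.05 and 1 and 0 with DESeq2. In footprints, the granule neuron markers *Gabra6*, *Neurod1*, *Zic1*, *Cbln3* and *Fat2* fell in B6J-*Gtpbp2*-/- mice, while edgeR called 0 of the 8 in B6J.*Gtpbp1*-/- mice, with 5 at an unadjusted p under 0.05 and 1 with DESeq2. The Purkinje cell markers were estimated in opposite directions in RNA and footprints. With TMM, the scaling for which signs were counted, all 8 estimates were below 0 in RNA and above 0 in footprints of both mutants, and the footprint sums ranged from 7201 to 14269.5 CPM in B6J, from 8044 to 14278 CPM in B6J.*Gtpbp1*-/- and from 13270 to 16257 CPM in B6J-*Gtpbp2*-/- mice. In footprints edgeR called 0 of the 8 in each mutant, with 1 and 2, all higher, at an unadjusted p under 0.05 and 0 and 1 with DESeq2. Footprints of 7 markers of meninges, bone and muscle, led by *Col1a1*, summed to 337, 758 and 948 CPM in B6J, to 1758, 1450 and 2764 CPM in B6J.*Gtpbp1*-/- and to 670, 1045 and 535 CPM in B6J-*Gtpbp2*-/- mice. Of these edgeR called 0 in B6J.*Gtpbp1*-/- mice, with 6 at an unadjusted p under 0.05 and 2 with DESeq2. Bulk samples cannot tell fewer cells of a type from less RNA per cell, and the part of these markers in the results below was not tested.

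*Chac1* (ENSMUSG00000027313.3, chr2:119351229-119354381, plus strand, GRCm38) encodes a gamma-glutamylcyclotransferase that cleaves reduced glutathione into pyroglutamate and cysteinylglycine, and it is known as a target of the transcription factors ATF4 and CHOP. Its RNA stood at 4.12, 4.08 and 3.97 CPM in the 3 B6J libraries, at 29.7, 30.2 and 37.0 CPM in the B6J.*Gtpbp1*-/- libraries and at 26.0, 35.2 and 31.5 CPM in the B6J-*Gtpbp2*-/- libraries. Every mutant library lay above every B6J library, by a margin wider than the spread within any genotype. The log2 fold change was 2.99 in B6J.*Gtpbp1*-/- mice (SE 0.128, 95% confidence interval 2.71 to 3.27, 7.95-fold, adjusted p = 2.24e-08, edgeR's quasi-likelihood test) and 2.93 in B6J-*Gtpbp2*-/- mice (SE 0.143, interval 2.62 to 3.24, 7.62-fold, adjusted p = 1.63e-06). Ordered by p, *Chac1* was number 6 of 24577 genes in the first comparison and number 4 of 24859 in the second. The mutants overlapped with each other, with a log2 difference of 0.06 (interval −0.22 to 0.34). The gene has 1 annotated transcript, so the choice of transcripts did not enter this result, and it passed in RNA and in footprints under every alternative setting that was run.

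Footprints on the *Chac1* coding sequence followed the same pattern. They numbered 33, 37 and 53 in B6J, 313, 350 and 345 in B6J.*Gtpbp1*-/- and 248, 153 and 441 in B6J-*Gtpbp2*-/- libraries, which scaled to 7.38, 8.15 and 8.42 CPM, to 45.1, 40.2 and 57.6 CPM and to 38.7, 42.1 and 42.6 CPM. The lowest mutant library in CPM was B6J-*Gtpbp2*-/- replicate 1, well above the highest B6J library. The log2 fold change was 2.57 (SE 0.239, adjusted p = 0.000309) in B6J.*Gtpbp1*-/- and 2.35 (SE 0.218, adjusted p = 4.53e-05) in B6J-*Gtpbp2*-/- mice. The change of TE was estimated below 0 in both mutants and passed in neither, at −0.41 (interval −0.94 to 0.12, adjusted p = 0.648) and −0.57 (interval −1.05 to −0.10, adjusted p = 0.332).

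*Chac2* encodes the related enzyme that is thought to act at a slower, steadier rate. Its RNA stood at 9.73, 8.72 and 10.7 CPM in B6J, at 8.77, 10.1 and 10.6 CPM in B6J.*Gtpbp1*-/- and at 6.998, 10.6 and 11.1 CPM in B6J-*Gtpbp2*-/- mice. The 3 genotypes overlapped, with log2 fold changes of 0.01 (interval −0.31 to 0.33) and −0.02 (interval −0.44 to 0.40). Footprint changes were 0.24 (adjusted p = 0.802) and 0.05 (adjusted p = 0.953), and neither passed. *Chac2* lies within *Asb3* on the opposite strand, and the RNA kit does not mark strand, so reads shared by the pair cannot be told apart.

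The share of *Chac1* in the pair was higher in both mutants. TPM (transcript abundance, in which counts are divided by length and scaled to a common total, so that genes can be compared) put *Chac1* at 15.2%, 17.0% and 13.2% of the summed RNA of *Chac1* and *Chac2* in B6J, at 59.0%, 56.1% and 60.3% in B6J.*Gtpbp1*-/- and at 60.3%, 59.0% and 55.1% in B6J-*Gtpbp2*-/- mice. In footprints the mean share was 33.3% ± 4.40 in B6J libraries, and the libraries of B6J.*Gtpbp1*-/- and B6J-*Gtpbp2*-/- mice had means of 70.7% ± 8.19 and 70.8% ± 2.99 (SD, n = 3 each). *Chac1* was the minor gene of the pair in all 6 B6J libraries and the major one in all 12 mutant libraries.

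**Figure D1:**
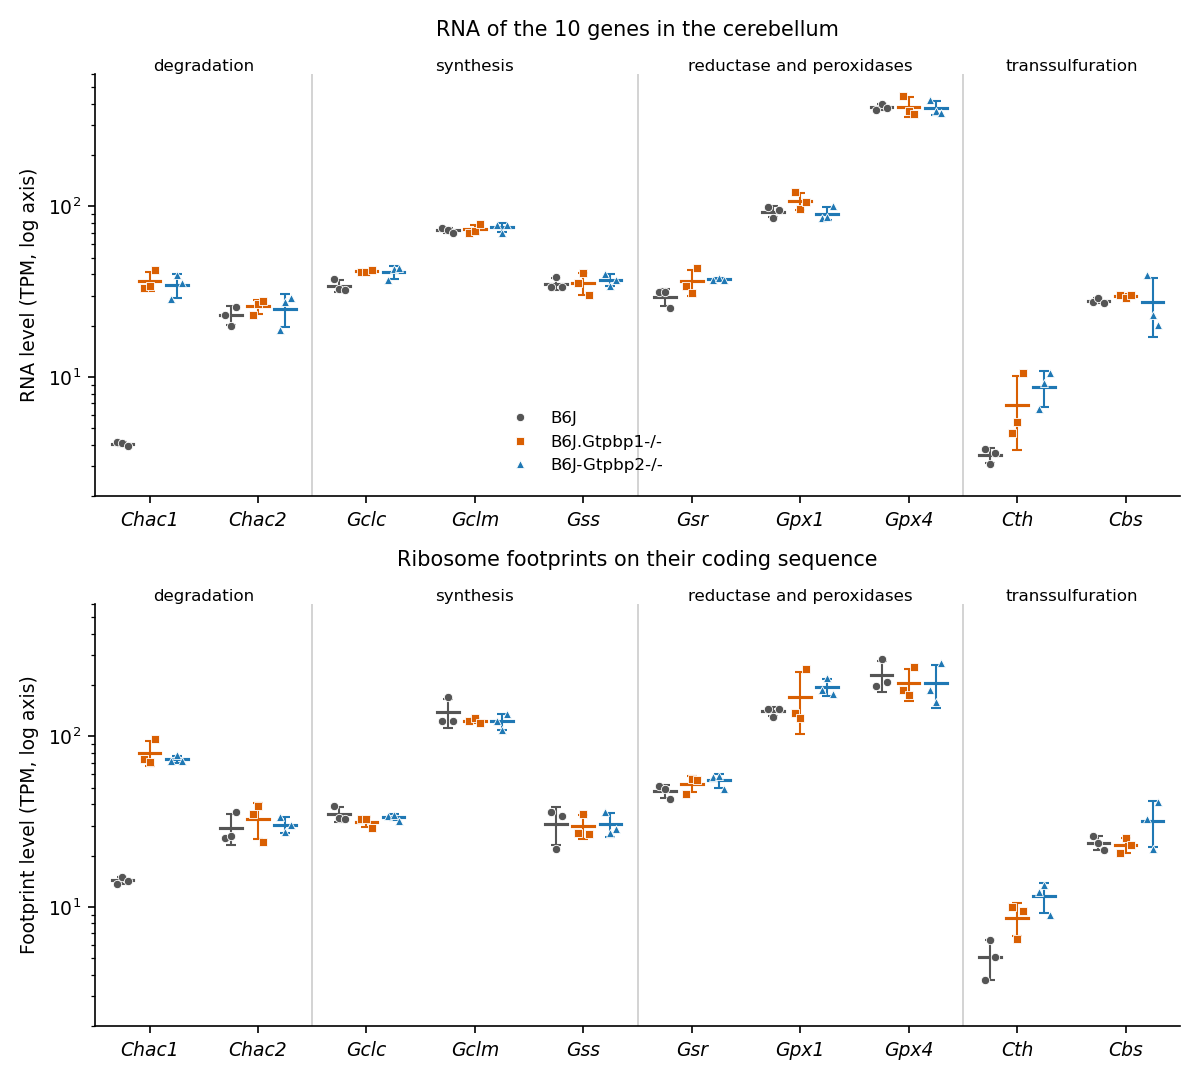
Levels of the 10 genes in TPM (log axis) in RNA (top) and ribosome footprints (bottom), with 1 point per library, a horizontal line at the mean of a genotype and bars of 1 SD (n = 3). *Chac1* rose from 4.06 TPM in B6J RNA to 36.7 and 34.7 TPM in the mutants, while no gene of synthesis and neither peroxidase passed the test.

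Of the 3 genes of glutathione synthesis, none passed in edgeR's test in RNA, in footprints or in TE in either mutant, none had an unadjusted p under 0.05, and DESeq2 called 0 of 3 in each of these comparisons. *Gclc*, the catalytic subunit of glutamate-cysteine ligase and the rate-limiting enzyme, stood at 64.9, 59.4 and 59.0 CPM in B6J, at 66.4, 67.1 and 68.1 CPM in B6J.*Gtpbp1*-/- and at 60.0, 68.7 and 71.5 CPM in B6J-*Gtpbp2*-/- RNA. The B6J.*Gtpbp1*-/- libraries lay just above the B6J range and the B6J-*Gtpbp2*-/- libraries overlapped with it, and neither difference passed (log2 fold change 0.14, adjusted p = 0.290, and 0.13, adjusted p = 0.463). *Gclm*, the modifier subunit, stood between 112 and 113 CPM in B6J, between 103 and 123 CPM in B6J.*Gtpbp1*-/- and between 103 and 122 CPM in B6J-*Gtpbp2*-/- RNA, with log2 fold changes of −0.02 and 0.02. *Gss*, glutathione synthetase, stood between 33.5 and 36.4 CPM in B6J, between 25.9 and 33.9 CPM in B6J.*Gtpbp1*-/- and between 30.1 and 35.6 CPM in B6J-*Gtpbp2*-/- RNA (−0.20, interval −0.43 to 0.03, and −0.13, interval −0.34 to 0.08).

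Footprints of the synthesis genes overlapped between the genotypes. Their log2 fold changes were −0.06 in both mutants for *Gclc*, −0.08 and −0.17 for *Gclm* and 0.02 and −0.02 for *Gss*, with adjusted p of 0.678 or more. The confidence intervals of *Gclc* in footprints, −0.46 to 0.34 and −0.42 to 0.29, leave room for moderate changes at this depth. *Gss* shares its locus with *Acss2* and the antisense transcripts *Gssos1* and *Gssos2*, and *Gclm* with *Gm17494*, all on the opposite strand, so their RNA counts carry the uncertainty named for *Chac2*.

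The log2 ratio of *Chac1* to the geometric mean of *Gclc*, *Gclm* and *Gss* in TPM was −3.46, −3.46 and −3.42 in the B6J RNA libraries, −0.48, −0.53 and −0.14 in B6J.*Gtpbp1*-/- and −0.76, −0.25 and −0.49 in B6J-*Gtpbp2*-/- libraries. In footprints it was −2.04, −1.73 and −1.86 in B6J, 0.62, 0.42 and 1.09 in B6J.*Gtpbp1*-/- and 0.42, 0.74 and 0.52 in B6J-*Gtpbp2*-/- libraries. *Chac1* footprints per length were thus below the geometric mean of the synthesis genes in every B6J library and above it in every mutant library, while they stayed below those of *Gclm* in both mutants. The summed TPM of the 3 synthesis genes was 142 ± 5.78 in B6J RNA, 151 ± 3.94 in B6J.*Gtpbp1*-/- RNA and 154 ± 5.82 in B6J-*Gtpbp2*-/- RNA, and 205 ± 18.1, 185 ± 10.8 and 187 ± 14.5 in footprints (SD, n = 3 each). The TPM scale itself favoured the mutants in RNA. On log2(TPM + 0.1), fitted with limma, the median log2 fold change of all genes was 0.21 and 0.19 in the mutants, against 0.03 in each with counts and TMM, and small differences in TPM are to be read against that shift.

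*Gsr*, the reductase that restores glutathione from its disulfide, stood at 33.5, 36.0 and 34.3 CPM in B6J, at 40.4, 36.9 and 40.1 CPM in B6J.*Gtpbp1*-/- and at 40.0, 40.1 and 37.5 CPM in B6J-*Gtpbp2*-/- RNA. All 6 mutant libraries lay above the B6J range by a small margin, and neither comparison passed (0.18 in each, adjusted p = 0.209 and 0.234). Footprints of *Gsr* also lay above the B6J range in all 6 mutant libraries, at 63.1 CPM or more against 62.0 CPM or less, without passing (0.23, adjusted p = 0.651, and 0.20, adjusted p = 0.571).

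*Gpx4*, which reduces lipid hydroperoxides within membranes, had the highest mean TPM of the 10 genes in both assays, although in footprints of both mutants its range overlapped with that of *Gpx1*. Its RNA stood at 151.7, 161 and 158 CPM in B6J, at 158, 129 and 121 CPM in B6J.*Gtpbp1*-/- and at 151.7, 129 and 128 CPM in B6J-*Gtpbp2*-/- mice. Replicates 2 and 3 of each mutant lay below B6J, whereas replicate 1 of each did not stand clear of it, and neither comparison passed (−0.20 in each, adjusted p = 0.179 and 0.176). Without B6J.*Gtpbp1*-/- replicate 1 the difference passed (−0.32, adjusted p = 0.0238), as it did without B6J-*Gtpbp2*-/- replicate 1 (−0.29, adjusted p = 0.0318). Footprints of *Gpx4* overlapped between the genotypes (−0.07 and −0.15). *Gpx4-ps2*, a pseudogene transcript 99.7% identical over 762 bases, received 24 estimated counts over the 9 RNA libraries, and reads shared with it are uncertain in their assignment.

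*Gpx1*, the peroxidase of the cytosol and mitochondria, stood at 38.4, 36.6 and 38.4 CPM in B6J, at 38.5, 32.5 and 33.9 CPM in B6J.*Gtpbp1*-/- and at 30.6, 31.6 and 33.8 CPM in B6J-*Gtpbp2*-/- RNA. The B6J-*Gtpbp2*-/- libraries lay below B6J, and the B6J.*Gtpbp1*-/- libraries overlapped with it (log2 fold change −0.24, adjusted p = 0.118, and −0.11, adjusted p = 0.508, neither passing). Its footprints stood at 70.7, 63.9 and 77.4 CPM in B6J, at 74.9, 65.6 and 134 CPM in B6J.*Gtpbp1*-/- and at 90.6, 107 and 95.3 CPM in B6J-*Gtpbp2*-/- mice. Here the B6J-*Gtpbp2*-/- libraries lay above B6J, and in B6J.*Gtpbp1*-/- mice only replicate 3 stood out (0.45, adjusted p = 0.158, and 0.37, adjusted p = 0.587). The change of TE in B6J-*Gtpbp2*-/- mice was 0.70 (SE 0.164, interval 0.35 to 1.05, unadjusted p = 0.000617, adjusted p = 0.140) and did not pass in edgeR. DESeq2 called it (0.67, adjusted p = 0.00336), the only TE call of a member by either tool. In B6J.*Gtpbp1*-/- mice the estimate was 0.49 with a wide interval, −0.15 to 1.13.

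Among these genes that did not pass, the sign of some RNA estimates depended on the scaling. On the TPM scale, fitted with limma, it changed for *Gclm*, *Gss*, *Gpx1*, *Gpx4* and *Cbs* in B6J.*Gtpbp1*-/- mice and for *Chac2* and *Gss* in B6J-*Gtpbp2*-/- mice, but that scale moved the median of all genes as well and says little about these genes. On counts, upper quartile scaling changed the sign for *Gclm* in B6J.*Gtpbp1*-/- (0.03) and *Chac2* in B6J-*Gtpbp2*-/- mice (0.02). It also raised the median of all genes, by 0.05 and 0.04, so these 2 changes say little about the genes either. A length offset changed the sign for *Gpx1* in B6J.*Gtpbp1*-/- (0.04) and *Gclm* in B6J-*Gtpbp2*-/- mice (−0.09).

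Transsulfuration has 2 enzymes, of which *Cth* (cystathionine gamma-lyase) releases the cysteine. *Cth* was the least abundant of the 10 genes in B6J, and its RNA stood at 2.52, 2.202 and 2.98 CPM in B6J, at 3.45, 4.04 and 7.18 CPM in B6J.*Gtpbp1*-/- and at 3.37, 6.30 and 7.28 CPM in B6J-*Gtpbp2*-/- mice. All 6 mutant libraries were above all 3 B6J libraries, and the mutant libraries differed among themselves by more than the B6J libraries did, with replicate 1 of each mutant nearest to B6J. The log2 fold change was 0.93 (SE 0.285, interval 0.31 to 1.54, adjusted p = 0.0477, edgeR) in B6J.*Gtpbp1*-/- and 1.14 (SE 0.287, interval 0.51 to 1.77, adjusted p = 0.0322) in B6J-*Gtpbp2*-/- mice.

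Both calls were close to the threshold. In B6J.*Gtpbp1*-/- mice the adjusted p was 0.0767 without B6J.*Gtpbp1*-/- replicate 2, 0.272 without replicate 3 (where the log2 fold change was 0.54), 0.122 without B6J replicate 1 and 0.154 without B6J replicate 2. In B6J-*Gtpbp2*-/- mice it was 0.102 without B6J-*Gtpbp2*-/- replicate 2, 0.150 without replicate 3, 0.110 without B6J replicate 1 and 0.125 without B6J replicate 2. With sex as a covariate it was 0.126 there, where all mutant libraries were female. Over the 17 alternatives run for each, 7 kept the first call and 11 the second.

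Footprints of *Cth* numbered 16, 28 and 34 in B6J, 75, 57 and 61 in B6J.*Gtpbp1*-/- and 76, 47 and 99 in B6J-*Gtpbp2*-/- libraries, few enough that counting noise is large. Scaled, they were 3.58, 6.17 and 5.40 CPM, 10.8, 6.54 and 10.2 CPM, and 11.9, 12.9 and 9.57 CPM. Every mutant library was again above the B6J range, with log2 fold changes of 0.85 (adjusted p = 0.330) and 1.15 (adjusted p = 0.0775), and neither passed in edgeR. DESeq2 called the second (1.16, adjusted p = 0.0475).

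Markers of endothelial cells and pericytes were also higher in the mutants. The 7 markers, led by *Rgs5*, summed to 357, 357 and 350.0 CPM in B6J, to 431, 506 and 531 CPM in B6J.*Gtpbp1*-/- and to 373, 583 and 614 CPM in B6J-*Gtpbp2*-/- RNA, with replicate 1 of each mutant again nearest to B6J. Of the 7, *Cldn5*, *Slco1a4*, *Pdgfrb*, *Rgs5* and *Flt1* rose in B6J.*Gtpbp1*-/- mice and *Cldn5*, *Slco1a4* and *Pecam1* in B6J-*Gtpbp2*-/- mice, all named after their values were seen, and none was at 0. *Cldn5* had the smallest p in both (0.59, adjusted p = 0.00290, and 0.74, adjusted p = 0.00275). In footprints the 7 summed to 510, 362 and 577 CPM in B6J, to 1308, 819 and 653 CPM in B6J.*Gtpbp1*-/- and to 952, 816 and 899 CPM in B6J-*Gtpbp2*-/- mice, all mutant libraries above B6J. There *Cldn5* rose in both mutants (1.42, adjusted p = 0.0209, and 1.41, adjusted p = 0.00395), and *Cdh5* and *Rgs5*, also named after their values were seen, in B6J-*Gtpbp2*-/- mice. Their part in the *Cth* results was not tested. *Gm43314*, on the same strand, overlaps *Cth* and held 154 estimated counts over the 9 RNA libraries.

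*Cbs* (cystathionine beta-synthase), which takes the first step of transsulfuration and is known in the cerebellum from Bergmann glia, stood at 23.9, 30.6 and 31.8 CPM in B6J, at 32.4, 25.1 and 25.6 CPM in B6J.*Gtpbp1*-/- and at 35.1, 22.2 and 21.7 CPM in B6J-*Gtpbp2*-/- RNA. The genotypes overlapped, and the replicates of a genotype were as far apart as the genotypes (−0.06, adjusted p = 0.845, and −0.13, adjusted p = 0.769). In footprints, B6J-*Gtpbp2*-/- replicates 1 and 3 were above B6J, at 45.8 and 63.5 CPM, and replicate 2 was below it, at 30.5 CPM (0.46, adjusted p = 0.328). In TPM the log2 ratio of *Cth* to *Cbs* was −3.01 ± 0.198 in B6J RNA, −2.21 ± 0.611 in B6J.*Gtpbp1*-/- and −1.62 ± 0.877 in B6J-*Gtpbp2*-/- RNA (SD, n = 3 each). *Cbs* was the more abundant of the pair in all 9 RNA libraries.

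**Figure D2:**
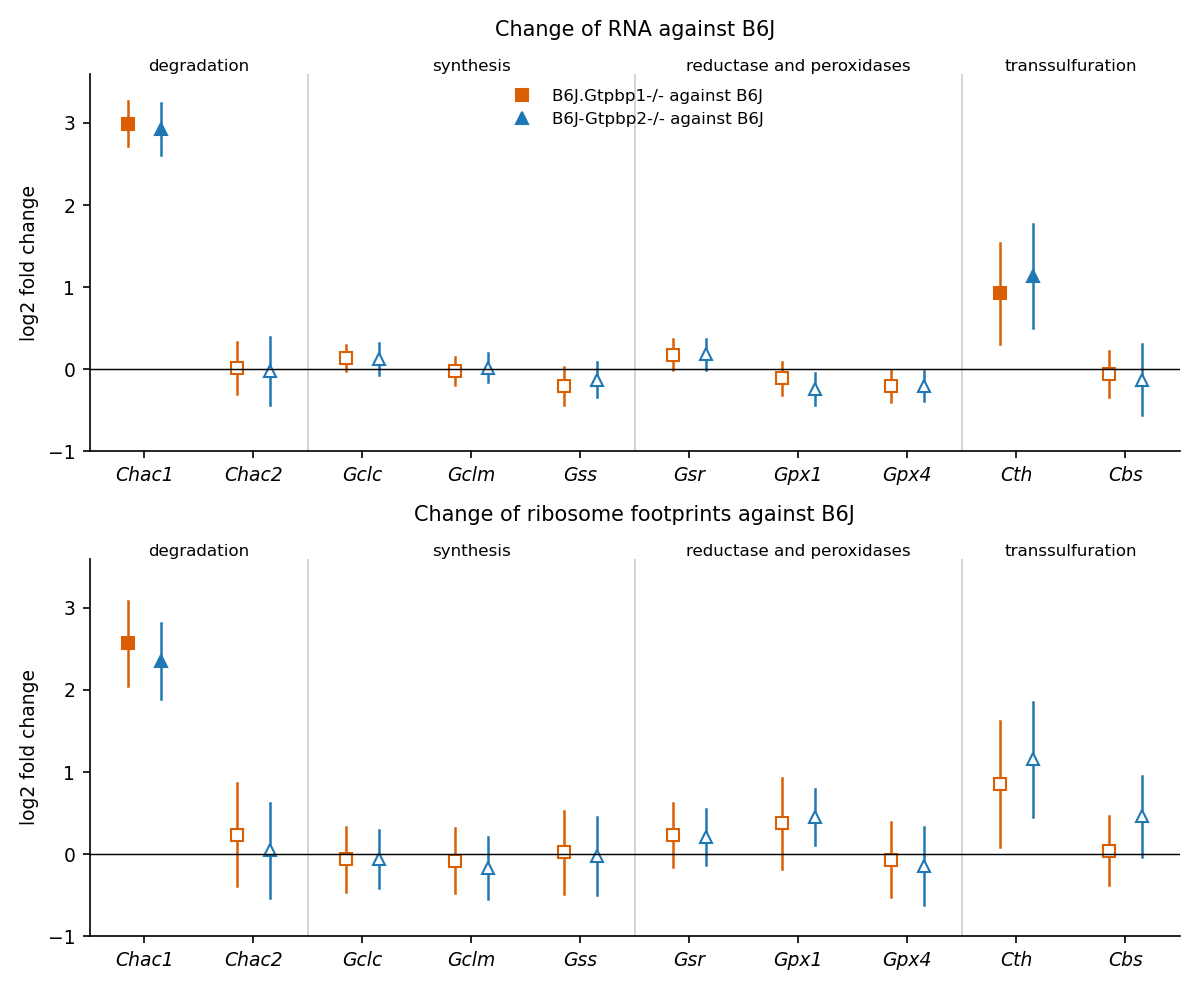
Log2 fold change against B6J of the 10 genes in RNA (top) and ribosome footprints (bottom), with 95% confidence intervals from edgeR, and filled symbols where the adjusted p was at most 0.05 (n = 3 libraries per genotype and assay). *Chac1* stands apart at 2.99 and 2.93 in RNA and at 2.57 and 2.35 in footprints, *Cth* is filled in RNA alone, and the other 8 genes are open in every comparison.

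By TPM, the order of the 10 genes in B6J RNA was *Gpx4* (382 ± 15.7), *Gpx1* (93.4 ± 6.96), *Gclm* (72.3 ± 2.68), *Gss* (35.3 ± 2.82), *Gclc* (34.2 ± 2.83), *Gsr* (29.5 ± 3.45), *Cbs* (28.0 ± 0.921), *Chac2* (23.0 ± 2.92), *Chac1* (4.06 ± 0.112) and *Cth* (3.49 ± 0.366; SD, n = 3). *Gss* and *Gclc* overlapped in range, as did *Gsr* and *Cbs*, and all other neighbours were apart. In the mutants *Chac1* moved from rank 9 to rank 5 in B6J.*Gtpbp1*-/- mice (36.7 ± 4.85) and to rank 7 in B6J-*Gtpbp2*-/- mice (34.7 ± 5.45), and in both its range overlapped with those of its neighbours above and below. In footprints it moved from rank 9 (14.3 ± 0.685) to rank 4 in both (80.3 ± 13.8 and 73.5 ± 3.55), below *Gclm* and above *Gsr* without overlap.

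The wider pathways were described from lists of genes, given here as counts of genes that passed in RNA of B6J.*Gtpbp1*-/- and of B6J-*Gtpbp2*-/- mice, in that order. Over all genes, 13.8% and 8.63% passed, 1449 higher and 1949 lower in the first comparison and 898 higher and 1248 lower in the second, and no test compared a list with all genes. In the gamma-glutamyl cycle and peptide breakdown, 1 of 16 genes rose (*Chac1*) and 1 fell in each mutant. The gene that fell was *Ggt7*, a member of the gamma-glutamyltransferase family, at 90.1, 83.0 and 87.4 CPM in B6J, 71.6, 62.6 and 55.4 CPM in B6J.*Gtpbp1*-/- and 72.0, 61.9 and 62.8 CPM in B6J-*Gtpbp2*-/- RNA (−0.46, adjusted p = 0.00490, and −0.41, adjusted p = 0.0136). All mutant libraries were lower than all B6J libraries, but the call was lost with limma on log2(TPM + 0.1) in both mutants (−0.19, adjusted p = 0.312, and −0.20, adjusted p = 0.308). In B6J-*Gtpbp2*-/- mice it was also lost without B6J-*Gtpbp2*-/- replicate 2 (adjusted p = 0.0590), without replicate 3 (0.0661) and without B6J replicate 1 (0.0761).

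Among 6 glutathione peroxidases, 1 rose in each mutant. This was *Gpx3*, the secreted peroxidase, which stood at 4.07, 4.51 and 4.97 CPM in B6J, at 20.1, 15.0 and 10.7 CPM in B6J.*Gtpbp1*-/- and at 20.1, 10.9 and 10.6 CPM in B6J-*Gtpbp2*-/- RNA (1.76, adjusted p = 0.000110, and 1.61, adjusted p = 0.00248). The mutants were above B6J without overlap in RNA. In footprints *Gpx3* varied widely, from 5.95 to 17.4 CPM in B6J, from 15.1 to 54.2 CPM in B6J.*Gtpbp1*-/- and from 5.93 to 46.5 CPM in B6J-*Gtpbp2*-/- mice, and did not pass (adjusted p = 0.315 and 0.655). Of the cytosolic and membrane peroxidases, *Gpx1* and *Gpx4* did not pass, as described above.

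Of 21 glutathione S-transferases and related enzymes, 2 rose and 1 fell in each mutant (beside 13.8% and 8.63% of all genes). *Mgst3*, a microsomal transferase, fell from 51.9, 53.1 and 60.1 CPM in B6J to 30.4, 27.9 and 27.1 CPM in B6J.*Gtpbp1*-/- and to 34.8, 30.2 and 27.8 CPM in B6J-*Gtpbp2*-/- RNA (−0.95, adjusted p = 2.02e-05, and −0.83, adjusted p = 0.000815), without overlap. Its footprints fell in B6J-*Gtpbp2*-/- mice (−0.74, adjusted p = 0.0292), a call lost without B6J-*Gtpbp2*-/- replicate 1 (adjusted p = 0.179), replicate 2 (0.142), B6J replicate 2 (0.0894) or B6J replicate 3 (0.0571), and in B6J.*Gtpbp1*-/- mice they did not pass (−0.41, adjusted p = 0.354). *Hpgds*, a prostaglandin D synthase of the sigma class of transferases, and *Gsto1*, of the omega class, rose. *Hpgds* rose by 1.01 (adjusted p = 0.00611) and 1.04 (adjusted p = 0.0106), and *Gsto1* by 0.46 (adjusted p = 0.00883) and 0.53 (adjusted p = 0.0101). In B6J-*Gtpbp2*-/- mice *Hpgds* did not pass without B6J-*Gtpbp2*-/- replicate 2 (adjusted p = 0.0523), B6J replicate 1 (0.0503) or B6J replicate 2 (0.0539), nor *Gsto1* without B6J-*Gtpbp2*-/- replicate 3 (0.0541) or B6J replicate 2 (0.0511).

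In the glutaredoxin and thioredoxin system, edgeR called 2 of 17 genes in each mutant and both fell, with 5 genes at an unadjusted p under 0.05 and 4 called by DESeq2 in each. The genes that fell were the peroxiredoxins *Prdx2* (−0.38, adjusted p = 0.00265, and −0.34, adjusted p = 0.0107) and *Prdx5* (−0.33, adjusted p = 0.0170, and −0.38, adjusted p = 0.0127). Both were lower in all 6 mutant libraries. On log2(TPM + 0.1), limma called neither (for *Prdx2* −0.19 and −0.12, for *Prdx5* −0.15 and −0.20). *Prdx5* was also lost without B6J.*Gtpbp1*-/- replicate 2 (adjusted p = 0.0985) or replicate 3 (0.0637) or B6J replicate 1 (0.0766) in the first comparison, and without B6J-*Gtpbp2*-/- replicate 3 (0.0658) or B6J replicate 1 (0.0701) in the second, where *Prdx2* was lost without B6J replicate 1 (0.0546). In footprints 1 gene of this list passed, *Txnip*, named after its value was seen, which rose in B6J-*Gtpbp2*-/- mice (1.15, adjusted p = 0.0128).

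The methionine cycle feeds homocysteine into transsulfuration. *Mat2b*, a regulatory subunit for S-adenosylmethionine synthesis, fell (−0.42, adjusted p = 0.00138, and −0.43, adjusted p = 0.00555), though limma on log2(TPM + 0.1) did not call it (adjusted p = 0.0702 and 0.0791). *Mtrr* rose in B6J.*Gtpbp1*-/- mice alone (0.41, adjusted p = 0.0285, and 0.28, adjusted p = 0.220), with a difference between the mutants of 0.13 that did not pass (adjusted p = 1.0). That call was lost without B6J.*Gtpbp1*-/- replicate 2 (adjusted p = 0.0775) or replicate 3 (0.117), or B6J replicate 2 (0.0724) or replicate 3 (0.0592). In transsulfuration and cysteine breakdown together, *Cth* was the 1 gene of 12 that passed in each mutant.

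Of 9 genes for transport of cystine, cysteine and glutamate, 3 rose and 1 fell in each mutant (beside 13.8% and 8.63% of all genes), with a median log2 fold change of 0.37 and 0.44, against 0.03 over all genes in each. *Slc7a11*, the light chain of the cystine and glutamate exchanger, stood at 42.6, 49.7 and 46.0 CPM in B6J, at 92.7, 107 and 119 CPM in B6J.*Gtpbp1*-/- and at 70.4, 102 and 102 CPM in B6J-*Gtpbp2*-/- RNA. All mutant libraries exceeded B6J, B6J-*Gtpbp2*-/- replicate 1 by the least (1.202, adjusted p = 3.69e-06, and 0.99, adjusted p = 0.00151). Its footprints overlapped between the genotypes. B6J replicate 2 was high, at 41.2 CPM against 20.1 and 21.8 CPM in the other B6J libraries, and neither comparison passed (0.79, adjusted p = 0.265, and 0.20, adjusted p = 0.739).

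*Slc3a2*, the heavy chain that *Slc7a11* shares with other amino acid carriers, rose in RNA (1.34, adjusted p = 1.43e-06, and 1.28, adjusted p = 0.000107) and in footprints (1.44, adjusted p = 0.00829, and 0.85, adjusted p = 0.00947). *Slc1a4*, a carrier of alanine, serine and cysteine, rose in RNA (1.71, adjusted p = 1.73e-07, and 1.58, adjusted p = 1.98e-05) and in footprints (1.33, adjusted p = 0.0197, and 0.76, adjusted p = 0.0442). Without B6J replicate 1, no footprint call of these genes held (adjusted p = 0.0940 and 0.0635 for *Slc3a2*, 0.154 and 0.167 for *Slc1a4*). *Slc3a2* was also lost without B6J-*Gtpbp2*-/- replicate 1 (0.0593). *Slc1a4* was lost in B6J.*Gtpbp1*-/- mice without B6J replicate 2 (0.0820), and in B6J-*Gtpbp2*-/- mice without B6J replicate 2 (0.110) or any 1 mutant library (0.151, 0.0708 and 0.132). *Slc1a3*, the glutamate transporter of astrocytes and Bergmann glia, fell in RNA (−0.45, adjusted p = 0.00911, and −0.44, adjusted p = 0.0219), while its footprints did not pass (0.04, adjusted p = 0.961, and 0.07, adjusted p = 0.872). The RNA change did not pass without B6J.*Gtpbp1*-/- replicate 2 (0.0683) or B6J replicate 2 (0.0502) in the first comparison, nor in the second without B6J-*Gtpbp2*-/- replicate 2 (0.0533) or 3 (0.0821) or B6J replicate 1 (0.0876) or 2 (0.0865).

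*Slc1a3* also belongs to the 9 markers of astrocytes and Bergmann glia, of which it was the most abundant in RNA. These summed to 5455, 5767 and 5133 CPM in B6J, to 5143, 4323 and 4936 CPM in B6J.*Gtpbp1*-/- and to 4637, 4939 and 4380.4 CPM in B6J-*Gtpbp2*-/- RNA. Of the 9, *Hopx*, *Slc1a3*, *S100b* and *Aldh1l1* fell and *Gfap* rose (1.35 and 1.22) in each mutant, named after their values were seen, and none was at 0. In footprints the 9 summed to 7371, 6311 and 9706 CPM in B6J, to 8235, 9562 and 8868 CPM in B6J.*Gtpbp1*-/- and to 9889, 9266 and 10398 CPM in B6J-*Gtpbp2*-/- mice, and edgeR called 0 of 9 in each mutant, with 3 in each at an unadjusted p under 0.05 and 1 in each with DESeq2. Their part in the *Slc1a3* result was not tested.

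NRF2 (*Nfe2l2*) activates many genes of glutathione synthesis and use. Of 25 genes of its pathway, 5 rose and 3 fell in B6J.*Gtpbp1*-/- mice, and 5 rose and 1 fell in B6J-*Gtpbp2*-/- mice (beside 13.8% and 8.63% of all genes), with median log2 fold changes of −0.04 in both, against 0.03 over all genes in each. The genes that rose were *Slc7a11*, *Hmox1*, *Nfe2l1*, *Bach1* and *Mafg*, and those that fell were *Me1* in both and *Fth1* and *Slc48a1* in B6J.*Gtpbp1*-/- mice, where *Mafg*, *Me1*, *Fth1* and *Slc48a1* are named after their values were seen. *Hmox1*, heme oxygenase, stood at 4.52, 3.52 and 3.77 CPM in B6J, at 11.8, 9.003 and 11.5 CPM in B6J.*Gtpbp1*-/- and at 5.80, 10.3 and 10.42 CPM in B6J-*Gtpbp2*-/- RNA (1.45, adjusted p = 0.000148, and 1.16, adjusted p = 0.0126). The second call was lost without B6J-*Gtpbp2*-/- replicate 2 (adjusted p = 0.0517) or 3 (0.0609) or B6J replicate 2 (0.0693). *Nfe2l1* rose by 0.64 (adjusted p = 0.000385) and 0.62 (adjusted p = 0.00256), and *Bach1*, a repressor of these targets, by 0.42 (adjusted p = 0.00488) and 0.34 (adjusted p = 0.0326). *Bach1* did not pass in B6J-*Gtpbp2*-/- mice without B6J-*Gtpbp2*-/- replicate 2 (0.0800) or 3 (0.114), or B6J replicate 1 (0.110) or 2 (0.0960).

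*Nfe2l2* itself stood at 25.8, 24.2 and 20.6 CPM in B6J, at 27.0, 27.8 and 27.6 CPM in B6J.*Gtpbp1*-/- and at 22.5, 27.1 and 29.9 CPM in B6J-*Gtpbp2*-/- RNA, and did not pass (0.22, adjusted p = 0.199, and 0.17, adjusted p = 0.499). *Keap1*, which marks NRF2 for destruction, did not pass either (adjusted p = 0.376 and 0.550). In footprints of this list edgeR called 0 of 25 and 0 of 24 genes, with 4 and 5 at an unadjusted p under 0.05 and 1 and 0 with DESeq2.

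*Gpx1*, *Gpx3* and *Gpx4* are selenoproteins, which insert selenocysteine at a UGA codon. Of 23 selenoprotein genes, 1 rose and 5 fell in B6J.*Gtpbp1*-/- mice, and of 24, 1 rose and 4 fell in B6J-*Gtpbp2*-/- mice (beside 13.8% and 8.63% of all genes). The gene that rose was *Gpx3*. *Dio2*, the deiodinase that activates thyroid hormone, fell from 70.4, 64.5 and 73.5 CPM in B6J to 36.9, 35.1 and 31.9 CPM in B6J.*Gtpbp1*-/- and to 46.6, 34.5 and 39.9 CPM in B6J-*Gtpbp2*-/- RNA (−1.004, adjusted p = 9.89e-06, and −0.78, adjusted p = 0.00155). *Selenon* fell (−0.44, adjusted p = 0.00327, and −0.47, adjusted p = 0.0125), the second not without B6J replicate 1 (0.0586). *Selenow* fell in B6J.*Gtpbp1*-/- mice (−0.36, adjusted p = 0.00548) and missed the threshold in B6J-*Gtpbp2*-/- mice (−0.30, adjusted p = 0.0562), where DESeq2 called it (adjusted p = 0.0152), as did edgeR without B6J-*Gtpbp2*-/- replicate 1 (adjusted p = 0.0208). *Selenom* and *Selenoo*, named after their values were seen, fell in both. On log2(TPM + 0.1), limma called neither *Selenon* nor *Selenow* in B6J.*Gtpbp1*-/- mice (adjusted p = 0.136 and 0.241), nor *Selenon* and *Dio2* in B6J-*Gtpbp2*-/- mice (0.199 and 0.0542). Of the 8 genes that make and insert selenocysteine, edgeR called 0 in each mutant, with 1 and 0 at an unadjusted p under 0.05 and 0 with DESeq2.

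The integrated stress response, in which ATF4 and CHOP (*Ddit3*) act, was followed through 12 genes. Of these, 11 rose in RNA in each mutant (beside 13.8% and 8.63% of all genes), and 7 and 9 rose in footprints (beside 0.745% and 2.94%). *Atf4* rose in RNA by 0.90 (adjusted p = 5.20e-05) and 0.83 (adjusted p = 0.000914) and in footprints by 1.71 (adjusted p = 0.0213) and 1.59 (adjusted p = 0.0184). *Ddit3* rose in RNA by 1.29 (adjusted p = 1.23e-06) and 1.18 (adjusted p = 0.000153), in footprints by 1.84 (adjusted p = 0.0400) in B6J.*Gtpbp1*-/- mice, and did not pass in footprints of B6J-*Gtpbp2*-/- mice (1.56, adjusted p = 0.0624), where DESeq2 called it (adjusted p = 0.0223), as did edgeR without B6J replicate 2 (0.0492). The footprint calls of *Atf4* were lost without B6J replicate 1 in both mutants (adjusted p = 0.156 and 0.0766), without B6J.*Gtpbp1*-/- replicate 1 (0.107) or 3 (0.0615), and without B6J-*Gtpbp2*-/- replicate 1 (0.0818) or 3 (0.0537). That of *Ddit3* was lost without B6J.*Gtpbp1*-/- replicate 1 (0.146) or 3 (0.0602) or B6J replicate 1 (0.206) or 3 (0.0792).

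Other alternatives also removed calls of the genes named from these lists. With sex as a covariate, RNA calls lost in B6J-*Gtpbp2*-/- mice included those of *Gsto1* (adjusted p = 0.0521), *Hpgds* (0.0560), *Hmox1* (0.0708), *Slc1a3* (0.0892) and *Bach1* (0.1), and the footprint calls of *Mgst3* (0.104), *Slc3a2* (0.318) and *Slc1a4* (0.567) in these mice were lost with it too. In B6J.*Gtpbp1*-/- mice it removed the RNA call of *Prdx5* (0.0556) and the footprint calls of *Slc1a4* (0.0624) and *Ddit3* (0.0666). A replicate block removed the RNA calls of *Mtrr* (0.0781) and *Slc1a3* (0.0587) and the footprint calls of *Slc3a2* (0.0534), *Atf4* (0.0878) and *Ddit3* (0.155) in B6J.*Gtpbp1*-/- mice, and the RNA call of *Bach1* (0.0574) in B6J-*Gtpbp2*-/- mice. A length offset removed the RNA calls of *Ggt7* (0.0546), *Prdx5* (0.0541) and *Mtrr* (0.109) in B6J.*Gtpbp1*-/- mice and of *Ggt7* (0.0725), *Prdx2* (0.0640) and *Bach1* (0.0742) in B6J-*Gtpbp2*-/- mice. Besides the genes noted above, limma on log2(TPM + 0.1) did not call *Mtrr* (0.0697) and *Slc1a3* (0.117) in B6J.*Gtpbp1*-/- mice or *Slc1a3* (0.151), *Hmox1* (0.0579) and *Bach1* (0.0750) in B6J-*Gtpbp2*-/- mice. *Mtrr* was also lost in B6J.*Gtpbp1*-/- mice with protein-coding transcripts (0.145), and *Slc1a4* in footprints of B6J-*Gtpbp2*-/- mice with all 9 libraries in a model (0.0920).

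The genes whose RNA pattern was most like that of *Chac1* were *Sesn2* (Pearson's r of log2 CPM 0.999), *Slc7a3* (0.998), *Shmt2* (0.998), *Cacng3* (0.998) and *Yars* (0.997), among 24030 genes compared over the 9 RNA libraries. The libraries fall into a B6J cluster and a mutant cluster, and r mostly records that split. Their log2 fold changes were 2.98 and 2.83 (*Sesn2*), 4.73 and 4.76 (*Slc7a3*), 2.14 and 2.104 (*Shmt2*), 2.21 and 2.23 (*Cacng3*) and 1.32 and 1.22 (*Yars*).

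Since *Chac1* and the transport genes *Slc7a11*, *Slc3a2* and *Slc1a4* rose together in RNA, the sequence around transcription starts was searched on both strands. Each window ran from 250 bases before to 50 bases from the start on. The motifs were TGATGNAA, the core of the C/EBP-ATF response element, TGACGTCA, the cyclic AMP response element, and TGACNNNGC, the core of the antioxidant response element. Windows from RefSeq (GRCm38.p6) were matched for 7 of the 10 genes, namely *Chac1*, *Chac2*, *Gclm*, *Gss*, *Gpx1*, *Gpx4* and *Cbs*. The motifs occur in 3.97%, 1.79% and 12.4% of all 32851 windows. *Chac1* held the first motif at chr2:119351049-119351056, as its reverse complement, and *Gclm* held the antioxidant core at chr3:122245423-122245431, also as its reverse complement. None of the 3 motifs was in the windows of *Chac2*, *Gss*, *Gpx1*, *Gpx4* or *Cbs*. Among the transport genes, *Slc7a11* held the first motif in both orientations, at chr3:50443672-50443679 and chr3:50443653-50443660, and *Slc1a4* held it at chr11:20332710-20332717, across the annotated start, while *Slc3a2* held none. The windows of *Gpx3*, *Hpgds*, *Gsto1*, *Nfe2l1*, *Bach1*, *Atf4* and *Ddit3*, which rose in RNA of both mutants, held none of the 3 motifs. Nor did those of *Mtrr*, which rose in B6J.*Gtpbp1*-/- RNA alone. A match describes letters and shows neither binding nor regulation. The stretches before the starts of *Chac1* (chr2:119350992-119351228, plus strand) and *Slc7a11* (chr3:50443615-50443863, minus strand) are printed 5′ to 3′. They belong to a degradation and an import gene that rose in RNA. Matches to TGATGNAA or its reverse complement are in capitals.
Chac1: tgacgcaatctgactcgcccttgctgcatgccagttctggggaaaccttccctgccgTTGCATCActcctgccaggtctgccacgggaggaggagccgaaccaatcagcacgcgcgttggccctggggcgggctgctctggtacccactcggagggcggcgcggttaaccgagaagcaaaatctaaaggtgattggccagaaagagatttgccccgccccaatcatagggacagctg
Slc7a11: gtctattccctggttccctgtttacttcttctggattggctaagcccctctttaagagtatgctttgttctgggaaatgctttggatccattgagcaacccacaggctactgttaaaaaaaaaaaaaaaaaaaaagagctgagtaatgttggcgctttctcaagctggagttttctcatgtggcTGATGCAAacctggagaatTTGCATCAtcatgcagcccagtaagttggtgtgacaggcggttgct

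The tRNA that is scarce in B6J mice reads AGA codons. *Chac1* has 0 AGA codons among 223, as have *Gpx1* and *Gpx4* among 201 and 197, a property of 9.22% of the 18829 genes with a coding sequence. *Gclc* has 13 of 637 and *Chac2* 4 of 178, or 20.4 and 22.5 per 1000 codons against a median gene at 10.6. *Gss* has 5 of 474, *Cbs* 5 of 547, and *Gclm*, *Gsr* and *Cth* have 2 each, of 274, 500 and 398. *Gpx1* and *Gpx4* each carry 1 TGA codon in frame, at codons 47 and 73, where selenocysteine is inserted. Footprint counts per gene hold no position, so occupancy at these codons was not analysed here.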

How the data were processed

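RNA and ribosome footprints were measured in cerebella of 3 genotypes with 3 libraries per genotype and assay. The authors aligned RNA reads (paired-end, polyadenylated RNA, unstranded kit) to the Gencode transcriptome with kallisto 0.42.4 and deposited estimated counts per transcript, which are not whole numbers. TPM values, normalized by kallisto for effective length and library total, were deposited beside them. For footprints, the authors removed ribosomal RNA reads with Bowtie2 2.2.3, aligned the rest to mm10 with HISAT2 2.1.0 and deposited raw counts on coding sequence from featureCounts, whose version is not given in the sources used here.

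Here the estimated counts of all transcripts were added up by gene and rounded. A gene entered a comparison of 2 genotypes if 3 or more of the 6 libraries held 5 or more counts, and edgeR 4.0.16 in R 4.3.3 was used (quasi-likelihood, robust, TMM). P-values were adjusted by Benjamini-Hochberg over all genes tested. TE was tested as the interaction of assay and genotype over 12 libraries, for genes reaching 10 counts in 3 or more of the 6 libraries of each assay, without genes of the prefix Hist. CPM used TMM over the 9 libraries of an assay, and footprint TPM used the joined coding length of a gene. Positions came from Gencode M21 (GRCm38). Tables were made with Python 3.11.15, numpy 2.4.6, pandas 2.3.3 and matplotlib 3.10.9.

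The members and lists were chosen with earlier results of these data known. From each pathway list, at most 4 genes that passed in RNA against B6J or in TE were named, by smallest p in B6J.*Gtpbp1*-/- mice, as were *Slc7a11*, *Nfe2l2*, *Keap1*, *Atf4* and *Ddit3* whatever their values and the 5 genes with the highest Pearson's r to *Chac1*. Alternatives were DESeq2 1.42.0, upper quartile scaling, filterByExpr, no filter, all 9 libraries in a model, a replicate block, sex as a covariate, protein-coding transcripts, a length offset, limma 3.58.1 on log2(TPM + 0.1) and log2(TPM + 1), and leaving out each library. For TE they were DESeq2, TMM within each assay, a mean of at least 1 count, all 18 libraries, a replicate block, protein-coding transcripts and leaving out each replicate. Some results are not reported here. The fits were tested on simulated data. Libraries of a genotype differed by more than sampling noise. Sex was read from *Ddx3y* (above 20 CPM taken as male). In RNA, B6J replicate 2 and B6J.*Gtpbp1*-/- replicates 1 and 2 were male, and in footprints B6J replicates 1 and 2 and B6J.*Gtpbp1*-/- replicate 1. The remaining libraries were female, so RNA and footprint libraries of the same number need not come from 1 mouse.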

Additional observations from a re-analysis of the deposited data

Results flagged for a closer look

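*Gpx1* in B6J-*Gtpbp2*-/- mice drew attention because its assays moved in opposite directions in CPM. All 3 RNA libraries lay below the B6J range and all 3 footprint libraries above it, and the resulting change of TE was 0.70 on the log2 scale (SE 0.164). Tested as an interaction with edgeR, it had an adjusted p of 0.140, and in DESeq2 the adjusted p was 0.00336. Over the 12 alternatives run for TE, the estimate lay between 0.62 and 0.75 and the adjusted p between 0.00336 and 0.439. Most selenoprotein genes were also estimated above 0 in TE. In B6J.*Gtpbp1*-/- mice 17 of 20 were above and 3 below, with a median of 0.41 against 0.03 over all genes. In B6J-*Gtpbp2*-/- mice 16 of 20, *Gpx1* included, were above and 4 below (0.27 against 0.03). Of these genes edgeR called 0 in each mutant, with 5 and 6 at an unadjusted p under 0.05, and DESeq2 called 0 and 2. No explanation was tested.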

How the results depend on the processing

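Of 1140 values of the 10 genes over all alternatives and comparisons, 1120 kept their direction where called and their side of the threshold, 16 lost the call, 4 gained it and 0 reversed, while 118 estimates changed sign without a call. The 16 were all *Cth*. In RNA of B6J.*Gtpbp1*-/- mice the count of members called was 1 rather than 2 with all 9 libraries, a replicate block, protein-coding transcripts, a length offset and both limma fits, and ranged from 1 to 3 with a library left out (3 without B6J.*Gtpbp1*-/- replicate 1, where *Gpx4* passed). In B6J-*Gtpbp2*-/- mice it was 1 with sex as a covariate and with protein-coding transcripts, and 1 to 3 with a library left out (3 without B6J-*Gtpbp2*-/- replicate 1, again with *Gpx4*). DESeq2 called 2 rather than 1 in footprints of B6J-*Gtpbp2*-/- mice and 1 rather than 0 in TE. The cause was not tested.

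Replicate numbers did not pair the libraries: same-numbered libraries had correlations of deviations from −0.0452 to 0.0894 in RNA, −0.260 to 0.0975 in footprints and −0.107 to 0.109 between assays, and 3 of 9 libraries per assay were most like their own number. With the replicate block the adjusted p of *Cth* was 0.0643 in B6J.*Gtpbp1*-/- mice, and no other member's call changed.

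Counts over all genes moved more. In RNA of B6J.*Gtpbp1*-/- mice, 3398 became 2237 with the block, 2230 with the length offset, 2056 and 2198 with limma (1534 higher and 522 lower, 1661 higher and 537 lower) and 1890 without B6J.*Gtpbp1*-/- replicate 2, and upper quartile scaling put 1837 higher and 1512 lower against 1449 and 1949. In B6J-*Gtpbp2*-/- mice, 2146 became 3409 with DESeq2, 1071 with sex, 1351 with the length offset, 871 and 968 with limma (669 higher and 202 lower, 748 higher and 220 lower) and 953 to 2357 with a library left out, and upper quartile scaling put 1074 higher and 941 lower against 898 and 1248. The 15 genes between the mutants became 46 with DESeq2 (21 higher, 25 lower against 4 and 11), 36 without a filter, 9 with sex, 5 with protein-coding transcripts, 8 and 10 with limma (1 higher in each) and 9 without B6J.*Gtpbp1*-/- replicate 1. In footprints, 104 (80 higher, 24 lower) became 406 with DESeq2 (251 higher, 155 lower), 213 without a filter, 202 with 9 libraries, 44 with the block, 56 with sex and 22 to 186 with a library left out, and 406 in B6J-*Gtpbp2*-/- mice became 655 with DESeq2, 268 with 9 libraries, 45 with sex and 106 to 619 with a library left out. Between the mutants, 0 became 100 with DESeq2, 3 with upper quartile scaling, 15 without a filter, 1 with 9 libraries or the block and 33 without B6J-*Gtpbp2*-/- replicate 3. In TE, 0 became 58 with DESeq2, 18 without B6J replicate 3 and 1 with protein-coding transcripts, and 1 became 160 with DESeq2, 2 with the lower filter or protein-coding transcripts, 5 with 18 libraries, 0 with the block and 0 to 42 with a replicate left out.

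Footprints of *Cth* numbered as few as 16 in a library, below the lowest count of *Chac1*, and the part of depth in its result was not tested. Of 2729 values of the other named genes, 118 lost a call, 18 gained one and 0 reversed.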
